A study of Trichosurus vulpecula with 116 samples.

Results

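Heart, skeletal muscle and tongue of the brushtail possum, *Trichosurus vulpecula*, were each sequenced as bulk poly(A) RNA, and these 4 libraries, picked by their tissue labels, were taken from the 116 RNA-seq libraries of the series. Heart and muscle came from Sandy, a male pouch young aged 22 days, and the labels do not give the muscle sampled. The tongues came from Sandy's mother Puku, an adult female, and from Sheila, a juvenile female whose mother was also Puku. They were set against each other, against the other 11 tissues taken from Sandy (bladder, brain, eye, kidney, large intestine, liver, lung, skin, small intestine, spleen and stomach), and against the livers of Puku and Sheila. All 17 libraries were made with the same strand-specific kit, and no group carried a treatment or a transgene. Every tissue was a single library, so the values below are levels, orders and ratios with no test, and the error of biological replication is unknown. Levels are given as CPM, the reads on a gene scaled to 1000000 reads of its library, with no correction for gene length. Calls therefore compare a gene only between libraries, and ranks, sums and shares of genes within a library also depend on their length. A gene was called higher when its ratio was at least 4-fold and its higher library held at least 5 CPM, with a library below 3 reads taken at 3 reads. Between the tongues and Sandy's tissues, the tissue cannot be told apart from the animal, its sex and its age. In bulk tissue, fewer cells of a type and less RNA per cell cannot be told apart.

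Heart and skeletal muscle contract through the same sarcomere, in which thick filaments of myosin slide past thin filaments of actin, troponin and tropomyosin, but the tissues build it from different members of each gene family. Calcium released from the sarcoplasmic reticulum starts contraction through the channel RYR2 in heart and RYR1 in skeletal muscle, and pumps of the ATP2A family return it. The tongue is skeletal muscle wrapped in a stratified, partly keratinised epithelium that bears the papillae, and newborn marsupials depend on it early, because they suckle while most other organs are still immature.

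Reads on genes came to 28569774 for Sandy's heart, 26034403 for Sandy's muscle, 10930785 for Puku's tongue and 9328691 for Sheila's tongue. Sandy's 13 libraries ranged from 17130171 to 32064469 reads. A gene at 3 reads stood at 0.0958 CPM in heart, 0.105 in muscle, 0.240 in Puku's tongue and 0.265 in Sheila's tongue. Differences below these levels were not detectable at this depth. Intervals given below are exact 95% binomial intervals on the reads, and they cover counting error only.

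The labels were checked against marker lists. The heart library held *TBX20*, a cardiac transcription factor, at 768 CPM, the muscle library held *MYOD1*, a myogenic factor, at 171 CPM, and neither gene had a read in the other library. Both tongues held *KRT4*, a keratin of internal stratified epithelium, at 12288 CPM in Puku and 13479.8 CPM in Sheila, together with the fast muscle myosin light chain *MYL1* at 1538 and 1402 CPM. Transcripts of taste cells were scarce in the tongue libraries. The taste channels *CALHM1* and *CALHM3*, the sour receptor channel *OTOP1* and the taste G protein subunit *GNAT3* had no reads in either tongue, the sweet and umami receptor subunits *TAS1R1*, *TAS1R2* and *TAS1R3* were at 0.176 CPM or below, and 10 of the 16 taste genes had no reads in each tongue. The summed taste list, 46.0 CPM in Puku and 38.3 CPM in Sheila, was mostly *ITPR3*, a calcium channel used by many cell types, at 36.4 and 31.9 CPM. Lingual gland genes with a row in the table were as scarce, at a summed 0.559 CPM for 14 genes in Puku's tongue and 48.5 CPM in Sheila's, of which 41.6 CPM was the simple epithelial keratin *KRT7*. The list named 21 genes, and some gland products, among them *MUC5B*, *MUC7* and *LPO*, had no row under their symbol and could not be read. Puku's tongue shared its sequencing index pair with Sandy's stomach, and Sheila's tongue shared its pair with Sandy's lung. The stomach proteins *GKN1* and *GKN2*, at 386 and 405 CPM in stomach, had no reads in either tongue, and the surfactant protein *SFTPC*, at 7709 CPM in lung, had none in Puku's and 2 in Sheila's. None of the 4 libraries held lung markers above a summed 1.71 CPM over 5 genes. The 7 stomach markers summed to 0.383 CPM in heart and 1.36 CPM in muscle, and to 7.83 and 20.4 CPM in the tongues of Puku and Sheila, nearly all of it the trefoil peptide *TFF2*, at 7.75 and 19.8 CPM. Of the 10 thymus markers, the epithelial transcription factor *FOXN1*, which skin also uses, was the only member that reached 5 CPM in any of the 4 libraries, at 5.03 and 6.62 CPM in the tongues. The 6 liver markers summed to 1.69 CPM in heart and 3.98 CPM in muscle, and to 171 and 349.7 CPM in the tongues, where the protease inhibitor *SERPINA1* made up 170.1 and 349 CPM.

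Puku's liver library held transcripts typical of tongue. A set of 19 genes had at least 1000 CPM in Sheila's tongue and no reads in the livers of Sheila and Sandy, and all 19 had more than 3 reads in Puku's liver. Their levels there were 0.207% to 0.419% of those in Sheila's tongue, with a median of 0.291%. *KRT4* was at 34.7 CPM in Puku's liver. LOC118850473 and LOC118847410, which had no reads in Puku's own tongue, were at 23.1 and 12.4 CPM in Puku's liver. The source of these reads was not tested. No level given for a tongue uses a liver library, and the liver values given beside the tongues carry these reads.

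Mitochondrially encoded genes took a larger share of reads in heart and tongue than in any of Sandy's other tissues. The 10 such genes in the table held 20.2% of reads in heart (interval 20.15% to 20.18%), 12.5% in muscle, 23.9% in Puku's tongue and 19.2% in Sheila's tongue. Sandy's other 11 tissues had a median of 6.44% and ranged upward from 2.59% in eye to kidney, whose interval ended at 16.03%, so muscle sat below kidney. *COX1*, a subunit of cytochrome oxidase, alone took 7.67% of reads in heart, 2.99% in muscle, 6.25% in Puku's tongue and 3.91% in Sheila's tongue. The 10 genes with the most reads held 23.86% of reads in heart, 18.46% in muscle, 28.02% in Puku's tongue and 26.43% in Sheila's tongue. These shares also grow with transcript length, which was not used here.

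**Figure D1:**
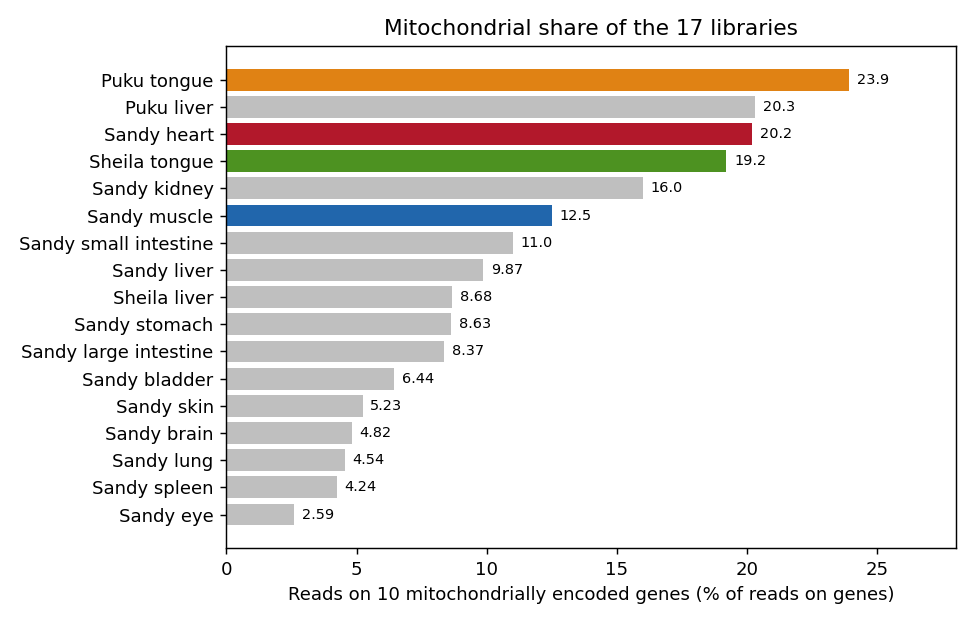
Share of reads on the 10 mitochondrially encoded genes, in percent of reads on genes, in each of the 17 libraries (1 bar each, no replicates). Heart (20.2%) and the tongues (23.9% and 19.2%) sit above all of Sandy's other tissues, of which kidney is highest and stays under 16.03%, and Puku's liver reaches 20.3%.

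Outside the mitochondrial genome, the most abundant genes included named filament genes in heart and muscle and the keratin *KRT4* in the tongues. In heart they were the unnamed gene LOC118859071 with 3.31% of reads, the giant sarcomere protein titin, *TTN*, with 0.580%, and cardiac actin, *ACTC1*, with 0.533%. In muscle they were LOC118846070 with 3.45%, *TTN* with 1.38%, LOC118859071 with 1.13%, LOC118853124 with 0.974% and skeletal actin, *ACTA1*, with 0.925%. In Puku's tongue LOC118846355 took 3.14%, *KRT4* 1.41% and LOC118846281 0.803%. In Sheila's tongue LOC118846355 took 5.76%, *KRT4* 1.64% and LOC118850473 1.18%. These LOC genes are protein-coding genes that carry no symbol in the table or in RefSeq, and LOC genes are given here by identifier and position on the mTriVul1.pri assembly.

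Heart was first compared with muscle, since both came from the same animal. Of 11737 genes tested, 576 (4.91%) were higher in heart and 592 (5.04%) were higher in muscle. The median log2 ratio over all tested genes was 0.22, and with the 75th percentile made equal between libraries it was -0.01. The 8 largest ratios toward heart were those of *TBX20*, *MYL7*, *NPPB*, *NPPA*, LOC118847934, LOC118854403, *NKX2-5* and *GATA5*, and the 8 largest toward muscle were those of LOC118853124, *TNNC2*, LOC118846070, *TNNI2*, *TNNT3*, *SLN*, LOC118848931 and *LMOD3*.

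Cardiac regulators and hormones lay almost wholly on the heart side. Of the 16 genes, 13 were higher in heart and none in muscle, with a median log2 ratio of 8.76 over the 15 tested, and 12 of the 16 had their highest level of Sandy's 13 tissues in heart. *NPPA*, the atrial natriuretic peptide, was at 260.1 CPM in heart (8148 reads) and had no reads in muscle or in either tongue. *NPPB*, the related B-type peptide, was at 402 CPM in heart, again with no reads in the other 3 libraries. *TBX20* had 24055 reads in heart and none in muscle, which put it at least 7339.8-fold higher in heart. The homeobox factor *NKX2-5* was at 256 CPM in heart, 0.140 in muscle, 14.3 in Puku's tongue and 9.00 in Sheila's tongue. The zinc-finger factors *GATA4* and *GATA6* were at 79.9 and 209.8 CPM in heart, and 3 of Sandy's other tissues held more *GATA4* than heart. *HAND1* and *HAND2*, factors of ventricle formation, were at 28.4 and 181 CPM in heart and at or below 0.419 CPM in muscle. LOC118854403, a long non-coding RNA next to *HAND2*, followed it at 346 CPM in heart and 0.174 CPM in muscle. *CORIN*, the protease that matures natriuretic peptides, was at 340.1 CPM in heart and 0.488 in muscle. On the other side of the ratio was *NR2F2*, a factor also used in veins and other tissues, at 11.9 CPM in heart and 28.1 CPM in muscle.

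Skeletal muscle regulators lay on the muscle side. Of 14 genes, 13 were higher in muscle and none in heart, with a median log2 ratio of -7.82 over the 13 tested, and 8 of the 14 had no reads in heart. *MYOD1* was at 171 CPM and *MYOG*, which drives differentiation, at 170.4 CPM in muscle. *PAX7* and *MYF5*, factors of muscle stem cells and early myoblasts, were at 21.7 and 21.6 CPM, and *MYMK*, needed for myoblast fusion, was at 69.8 CPM. *MSTN*, the growth inhibitor myostatin, was at 51.2 CPM in muscle and had no reads in heart. The neuromuscular junction list pointed the same way, with 6 of 9 genes higher in muscle, none in heart and a median log2 ratio of -3.48. *CHRNA1*, the acetylcholine receptor subunit of the endplate, was at 103 CPM in muscle and had no reads in heart, and *MUSK*, the kinase that clusters these receptors, was at 44.5 against 0.351 CPM.

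Calcium handling split by gene family. Of 26 genes of excitation and calcium, all tested, 7 were higher in heart and 11 in muscle, with a median log2 ratio of -1.42. *RYR2* was at 878 CPM in heart and 1.67 in muscle, and *RYR1* was at 2.11 in heart and 1177 in muscle. The L-type channel subunits divided alike, with *CACNA1C* at 287 against 3.35 CPM and *CACNB2* at 173 against 4.46 CPM on the heart side. On the muscle side *CACNA1S* was at 490.1 CPM with 2 reads in heart, and *CACNB1* was at 257 CPM against 4.82. The micropeptide regulators of the calcium pump split the same way. Phospholamban, *PLN*, was at 2792 CPM in heart and 2.30 in muscle, a 1213-fold ratio with a log2 counting interval of 9.90 to 10.61. Sarcolipin, *SLN*, was at 1238 CPM in muscle with 1 read in heart. The pump *ATP2A1* of fast muscle was at 2.59 CPM in heart and 925 in muscle, whereas *ATP2A2*, shared by heart and slow muscle, was at 1958 and 1412 CPM. *SCN4A*, the sodium channel of skeletal muscle, was at 46.9 CPM in muscle with 2 reads in heart. *GJA1*, the gap junction protein connexin 43, was at 690.2 CPM in heart and 70.0 in muscle.

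Several cardiac and slow filament isoforms were also read in Sandy's muscle. Of 15 thick filament genes, 4 were higher in heart and 5 in muscle, with a median log2 ratio of -0.74 over the 14 tested and -0.25 over all 15. The list named 27 genes, and only these 15 had a row under their symbol. Its only myosin heavy chains with a row were *MYH6*, *MYH7B* and *MYH15*, so its counts and medians leave out the others. *MYL7*, the atrial light chain, was at 536 CPM in heart and had no reads in muscle or tongue, and among Sandy's other 12 tissues its highest count was 3 reads, in bladder. *MYBPC3*, the cardiac myosin binding protein, was at 2463 against 21.7 CPM. *MYL4*, an atrial and embryonic light chain, was at 3331 CPM in heart, 128 in muscle and without reads in either tongue. *MYL3*, a ventricular and slow light chain, was at 2148 CPM in heart and 538 in muscle, a 3.99-fold ratio just under the limit. *MYH7B*, a slow-type myosin, was at 682 and 356 CPM. Fast genes lay on the other side. *MYL1* was at 0.830 CPM in heart and 5714 in muscle, and *MYLPF*, the fast regulatory light chain, at 0.670 and 5466. *MYBPC1* also lay on the muscle side, at 1.02 and 5893 CPM. *TTN* was at 5293 and 12531 CPM. LOC118859071, which lies at chr8:176999552-177032819 directly before *MYH6* on the same strand, was at 30182 CPM in heart and 10255 in muscle. Reads that map to both neighbours would be missing from counts of uniquely mapped reads, so the split between these genes is uncertain.

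Of 19 thin filament genes, 3 were higher in heart and 10 in muscle, with a median log2 ratio of -4.12. *ACTC1* was nearly equal in both, at 4863 and 4472 CPM, whereas *ACTA1* was at 285 CPM in heart and 8395 in muscle. Nebulin, *NEB*, the long ruler protein of skeletal thin filaments, was at 42.5 against 7439.8 CPM, and its short cardiac relative *NEBL* was at 2450.0 against 3.91 CPM. *LMOD3*, which nucleates skeletal thin filaments, was at 990.2 CPM in muscle with 1 read in heart. Of the troponins, *TNNT2*, the cardiac T subunit, was at 4675, 564, 35.1 and 50.1 CPM and *TNNT3*, the fast T subunit, at 0.255, 4717, 1878 and 1342 CPM in heart, muscle, Puku's tongue and Sheila's tongue. In the Z-disc and cytoskeleton list, 1 of 16 genes was higher in heart, the stretch-responsive *ANKRD1* at 383 against 63.9 CPM, and 7 were higher in muscle, with a median of -1.82. *ACTN3*, the actinin of fast fibres, was at 0.192 against 203 CPM, while *ACTN2*, shared by both tissues, was at 2028 against 3304 CPM.

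**Figure D2:**
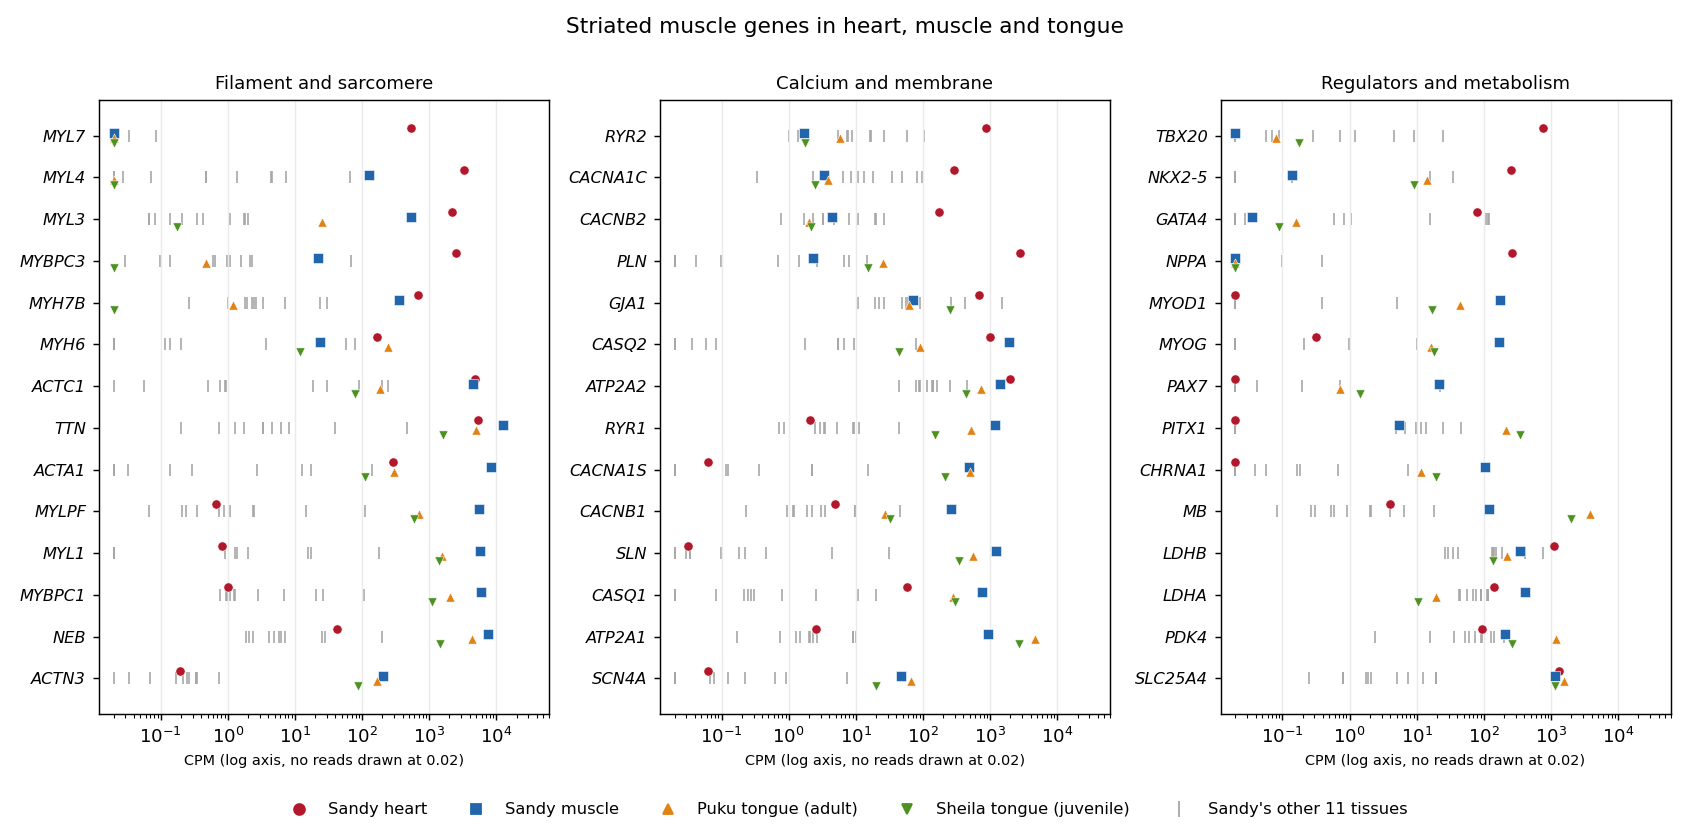
Level in CPM (log axis, genes without reads drawn at 0.02) of 42 genes of the sarcomere, of calcium handling and membrane channels, and of regulation and metabolism, in the 4 libraries (coloured symbols) and Sandy's other 11 tissues (grey ticks). Cardiac genes such as *PLN* (2792 CPM) separate heart from the other 3 libraries, and *MB* separates the tongues (3794 and 1979 CPM) from muscle (118 CPM) and heart (3.99 CPM).

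Energy metabolism differed by isoform. Of 24 genes, 1 was higher in heart and 10 in muscle, with a median log2 ratio of -1.49, where 4.91% and 5.04% of all tested genes were. *PGAM1*, the widely used phosphoglycerate mutase, was at 329 CPM in heart and 34.7 in muscle, and its muscle form *PGAM2* was at 0.0639 and 324 CPM. *ENO3*, the muscle enolase, was at 22.1 and 2225 CPM. The lactate dehydrogenase subunits leaned in opposite directions without reaching 4-fold, with *LDHB*, the heart-type subunit, at 1101 against 348 CPM and *LDHA*, the muscle-type subunit, at 141 against 408 CPM. *MB*, the oxygen store myoglobin, was low in both of Sandy's tissues, at 3.99 CPM in heart and 118 in muscle. *SLC25A4*, the mitochondrial ADP/ATP carrier of muscle, was level across all 4 libraries, at 1331, 1159.6, 1548 and 1142 CPM, and was at most 19.3 CPM in Sandy's other 11 tissues.

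Several growth genes were far higher in Sandy's muscle, although the growth list as a whole was evenly split. *IGF2*, the fetal growth factor, was at 849 CPM in heart and 5736 in muscle, the highest of Sandy's 13 tissues, of which liver came next at 2037 CPM. The long non-coding RNA LOC118853838, between *INS* and *MRPL23*, was at 309 and 7243 CPM. The study calls this RNA *H19*. *IGF2BP3*, an RNA-binding protein of fetal tissue, was at 23.4 CPM in heart, the lowest of Sandy's 13 tissues, and 1248 CPM in muscle, the highest. In all, 4 of 13 growth and fetal genes were higher in muscle and none in heart, with a median log2 ratio of -1.05 over the 9 tested. At any ratio 6 members stood above muscle in heart and 6 below. The median over all 13 was -0.13, which is the ratio of the 3-read floors. It was 0.00 without members at or under 3 reads in both libraries. Matrix genes leaned the same way, with 3 of 16 higher in muscle, none in heart and a median log2 ratio of -1.30. The collagen *COL1A1* was at 1975 and 6082 CPM, *COL12A1* at 24.5 and 654, and the secreted protein *POSTN* at 446 and 2435. *TNMD*, a tendon protein, was at 104 CPM in muscle with 2 reads in heart, and at most 5.59 CPM in Sandy's other tissues.

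Proliferation genes stood above their muscle level in heart, most of them by less than 4-fold. All 24 were above their level in muscle, 4 of them by 4-fold or more, with a median log2 ratio of 1.40 against 0.22 over all tested genes. *TOP2A*, a topoisomerase of dividing cells, was at 269.9 CPM in heart and 90.4 in muscle, and *CDK1*, the mitotic kinase, was at 57.9 and 14.4. The smallest difference was that of *MCM7*, at 50.2 and 46.6 CPM, which is within the shift that the other scaling made.

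Marker lists of other cell types were summed in the same libraries. The red cell list was alike in heart and muscle, at a summed 2082 and 2132 CPM, nearly all of it LOC118837956 at 2012 and 2029.7 CPM. Its members LOC118831853, LOC118831117 and LOC118831092 had no reads in either tissue. Endothelial genes summed to 843 CPM in heart and 460.0 in muscle, led by the junction protein *CDH5*, with 1 of 8 higher in heart and none in muscle. Smooth muscle genes summed to 633 and 383 CPM, with 2 of 7 higher in heart, and *CNN1* was at 112 against 8.41 CPM. Simple epithelial keratins, listed here under lingual gland, were present in heart, with *KRT8* at 188 CPM, *KRT19* at 196, *KRT18* at 11.1 and *KRT7* at 6.48. In muscle *KRT8* was at 0.174 CPM and *KRT19* at 32.4. The epicardial markers *TCF21*, *UPK3B* and *WT1* were at 26.1, 8.62 and 5.59 CPM in heart and at 0.523 CPM or less in muscle, where *TCF21* had no reads. The fourth marker, *ALDH1A2*, a retinoic acid enzyme, was at 7.38 CPM in heart and 22.1 in muscle. Leukocyte and macrophage markers summed to 70.5 and 88.7 CPM, with 1 of 10, *CD79A*, higher in heart at 10.1 against 1.08 CPM. Cartilage and bone markers summed to 45.3 and 38.4 CPM, mostly *COL11A1*, and the bone factor *SP7* had no reads in any of the 4 libraries. Schwann cell markers summed to 60.2 and 89.2 CPM. Over all tested genes, 4.91% were higher in heart and 5.04% in muscle. The part of these cells in the differences above was not tested.

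Against Sandy's other 12 tissues, heart held 81 of 16217 genes (0.499%) at 4-fold or more over the highest of them, and muscle held 165 (1.02%). For heart, the largest ratios belonged to *MYL7*, *NPPA*, LOC118856969, LOC118847934, *LRRC10*, LOC118856968, *PLN* and LOC118830892, in this order. LOC118856969 and LOC118856968 are long non-coding RNAs next to triadin, *TRDN*, and *LRRC10*, a cardiac leucine-rich repeat protein, was at 145 CPM. LOC118856969 was at 55.4 CPM in heart and had no reads in the other 12 tissues, at least 379.7-fold higher. For muscle, the largest ratios were those of LOC118848931, *METTL11B*, *ACTN3*, *MYL10*, *MSS51*, LOC118853124, LOC118832591 and *SMTNL1*. *MYL10*, a light chain, was at 267 CPM in muscle and at most 1.02 CPM elsewhere in Sandy, in eye. Muscle was the next highest tissue for 26 of the 81 heart genes, and skin for 64 of the 165 muscle genes, ahead of heart with 46.

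In 101 genes (0.623%), some of which also passed for heart alone, the lower of heart and muscle was at least 4-fold over the highest of the other 11 tissues. Among genes with a symbol, *MYL3* led, followed by *ABRA*, an actin-binding activator at 30.3 and 19.7 CPM, *ASB12*, *SLC25A4* and *TECRL*. Skin was the next highest tissue for 54 of the 101 genes. Skin held *LOC118846070* at 846 CPM, *TTN* at 459.8 and *ACTA1* at 138 CPM, and bladder held *DES*, the intermediate filament of all muscle, at 2309 CPM, above the 1784 CPM of muscle. The striated genes of skin set the limit for many of these calls. When the lowest of all 4 libraries was set against the same 11 tissues, 54 of 16360 genes (0.330%) passed. *ABRA*, *SLC25A4*, the muscle ribosomal protein *RPL3L*, *ASB12*, the ubiquitin ligase *TRIM63* and muscle creatine kinase, *CKM*, had the largest ratios among the named genes. *CKM* was at 1106 CPM in heart, 3693 in muscle, 3312 in Puku's tongue and 1539.5 in Sheila's tongue, against at most 55.1 CPM in skin. *RPL3L* was much lower in Sandy's tissues than in the tongues, at 6.45 and 5.30 CPM against 146 and 99.8 CPM.

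The tongues were then set against Sandy's muscle. Of 12082 genes tested, 1193 (9.87%) were higher in Puku's tongue and 1204 (9.97%) lower, and of 12070 genes 1171 (9.70%) were higher in Sheila's tongue and 1722 (14.3%) lower. Both tongues passed together for 888 of 12340 genes (7.20%) on the higher side and for 1030 (8.35%) on the lower side. This balance depended on scaling, with 983 higher and 940 lower when the 75th percentile was made equal. The median log2 ratio over all tested genes was -0.23 for Puku and -0.38 for Sheila, and -0.16 and -0.10 with the 75th percentile made equal. Both comparisons used the same muscle library.

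Epithelium genes set the tongues apart. Of 21 genes of stratified oral epithelium, 20 were higher in both tongues than in muscle, with median log2 ratios of 11.86 and 12.33. The list summed to 26091 CPM in Puku's tongue and 33883 CPM in Sheila's, against 344 CPM in muscle, 475 CPM in heart and 12656 CPM in skin, the highest of Sandy's other tissues. The exception was *TP63*, the factor of basal epithelial cells, at 33.2 CPM in muscle and 95.6 and 38.5 CPM in the tongues. *CRNN*, cornulin of the oral and oesophageal surface, was at 715 and 1819.8 CPM and had no reads in muscle or heart. *MAL*, a membrane protein of the upper layers, was at 1232 and 1349 CPM. *IVL* and *LORICRIN*, which build the cornified envelope, were at 453 and 442 CPM in Puku's tongue and at 756 and 626 in Sheila's, with skin at 612 and 1856 CPM. *SPINK5*, a protease inhibitor of cornifying epithelium, was at 3040.3 and 4002 CPM in the tongues, 2675 CPM in skin and without reads in muscle. *S100A7* and *S100A8*, calcium-binding proteins of epithelium and leukocytes, were at 1581 and 1527 CPM in Puku's tongue, 2623 and 3670.5 in Sheila's and 325 and 188 in skin. *DSG1*, a desmosomal cadherin, was lower in the tongues than in skin, at 2152 and 3123 against 4894 CPM.

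Against the highest of Sandy's 13 tissues, 74 of 16360 genes (0.452%) were at least 4-fold higher in the lower of the tongues. Of these, 48 carry no symbol, and skin was the next highest tissue for 21. The share without a symbol among all 16360 tested genes was not computed, so the 48 are not read as a trait of tongue. *KRT4* was at 2.84 CPM in skin, its highest level in Sandy, 4321-fold under Puku's tongue. *KRT3*, a keratin of wet surface epithelium, was at 6839.9 and 8443 CPM in the tongues and at 17.2 CPM in eye. Both genes lie in the keratin cluster of chromosome 5, *KRT4* at chr5:272087617-272095902 and *KRT3* at chr5:272109889-272117587. LOC118847860 and LOC118847861, between *LELP1* and *IVL* in the cornified envelope region, were at 2428 and 1628 CPM in Puku's tongue and at 2184 and 2568 in Sheila's, with no reads in any of Sandy's tissues. LOC118854083, LOC118854758 and LOC118854755 lie beside *TMPRSS11F*, a serine protease gene, and were at 129, 129.6 and 42.1 CPM in Puku's tongue. LOC118846355, at chr4:183263044-183268300 between *KRT19* and *KRT35*, was at 27449 and 47423 CPM in the tongues and at 4119 CPM in skin.

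Several slow and cardiac contractile genes were far lower in the tongues than in muscle. Of the 15 thick filament genes with a row under their symbol, which leave out most myosin heavy chains, 7 were lower in both tongues than in muscle. None of these 15 was higher in both. Of 19 thin filament genes 6 were lower and 1, *NEBL*, was higher. The median log2 ratio of the thick filament genes was -2.04 in Puku and -3.20 in Sheila over the 13 tested, and that of the thin filament genes was -1.60 and -2.24 over the 18 tested. *MYL1* was at 1538 and 1402 CPM against 5714 in muscle, *MYLPF* at 715 and 596 against 5466, and *NEB* at 4382 and 1441 against 7439.8. *MYL4* had no reads in either tongue. *ACTC1* was at 183 and 78.1 CPM, 24.4-fold and 57.2-fold under muscle. *MYL10* was at 4.07 and 5.38 CPM against 267. *MYH7B* was at 1.20 CPM in Puku's tongue and without reads in Sheila's, against 356 CPM in muscle. *CA3*, a carbonic anhydrase of slow fibres, had 4 reads in each tongue against 2623 CPM in muscle. The calcium pump went the other way, with *ATP2A1* at 4631 CPM in Puku's tongue, 5.01-fold above muscle, and 2666 CPM in Sheila's, 2.88-fold above. *MYH6* was at 247 CPM in Puku's tongue, 10.3-fold above muscle, and at 11.8 CPM in Sheila's, 2.03-fold below it. LOC118853124, between *NAA40* and *OTUB1* on chromosome 6, was at 6667 and 2631 CPM against 8841 in muscle and had 1 read in heart.

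A group of 5 nearby genes on the minus strand of chromosome 4, between *GAS7* and *ADPRM*, stood in a different order in muscle and tongue. They were chosen after their values had been seen, from 8 rows in this interval. In map order they are LOC118848931 at chr4:224580460-224623953, LOC118846280 at chr4:224635357-224661136, LOC118846281 at chr4:224678100-224710963, LOC118846282 at chr4:224716432-224740608 and LOC118846070 at chr4:224830745-224863966. In muscle LOC118846070 held 78.8% and LOC118848931 18.9% of the reads of the group, at 31334 and 7505 CPM. In Puku's tongue LOC118846281 held 62.8%, LOC118846280 20.0% and LOC118846282 15.9%. In Sheila's tongue LOC118846280 led with 61.9%, ahead of LOC118846281 with 23.9%. The shares within a library also depend on transcript length, which was not used. LOC118846070 was at 33.1 and 26.8 CPM in the tongues, 945-fold and 1169-fold under muscle. The whole group summed to 39782 CPM in muscle, 11161 in Puku's tongue, 8157 in Sheila's tongue and 1.79 CPM in heart. Adjacent genes of a family can share sequence. The study counted uniquely mapped reads, so reads that map to more than a single copy would be missing, and the split is uncertain there. Of the other 3 rows between the flanking genes, LOC118848741 was level at 38.5 to 40.4 CPM in all 4 libraries. LOC118847029 was at 0.0319 CPM in heart, 10.6 in muscle, 33.3 in Puku's tongue and 37.1 in Sheila's. LOC118847031, which lies between LOC118846280 and LOC118846281, reached at most 0.719 CPM, in Puku's tongue.

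**Figure D3:**
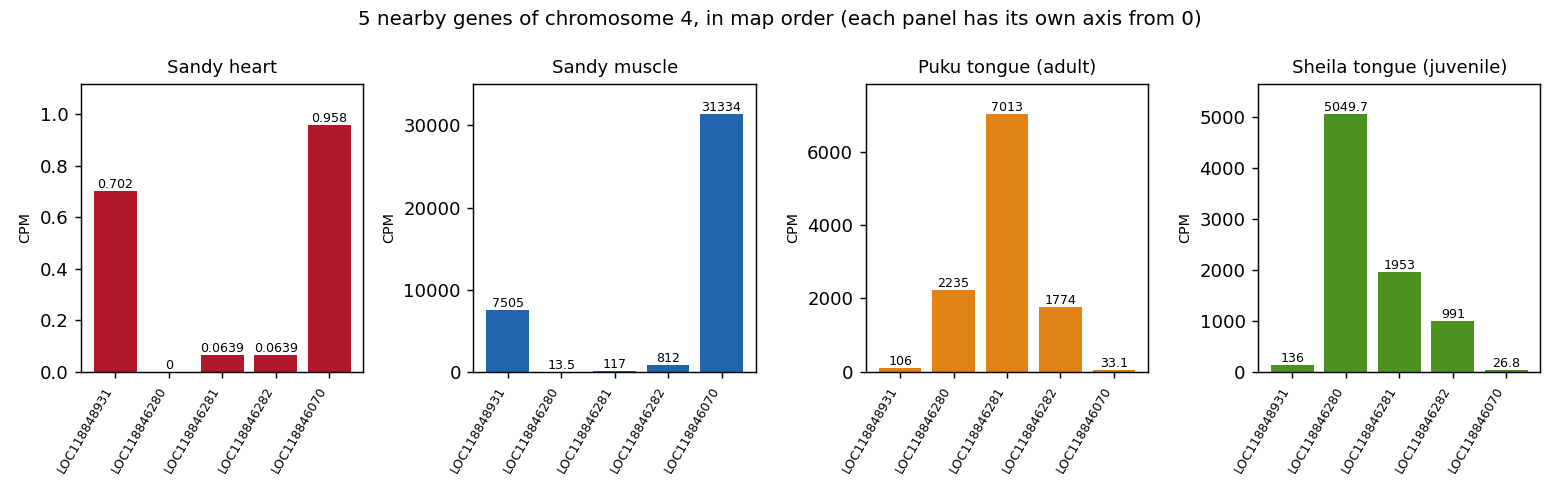
Level in CPM of the 5 nearby genes of chromosome 4, in map order, with a panel for each library and an axis from 0 that differs between panels. The highest bar is LOC118846070 in muscle (31334 CPM), LOC118846281 in Puku's tongue (7013 CPM) and LOC118846280 in Sheila's tongue (5049.7 CPM), and heart stays under 1 CPM.

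Several developmental regulators were lower in the tongues than in muscle, and *PITX1* was higher. Of 14 skeletal muscle regulators, 6 were lower in both tongues and 1 was higher. *MYOD1* was at 43.5 CPM in Puku's tongue, just short of the 4-fold limit, and 16.6 in Sheila's against 171 in muscle. *MSTN* was at 1.04 and 0.529 against 51.2. *MYF6*, a factor of mature fibres, was at 112 and 40.9 CPM against 89.5. *PITX1*, a homeobox factor of jaw and hindlimb, was at 215 and 348 CPM against 5.41 in muscle and at most 44.9 CPM in the rest of Sandy, in bladder. Of 9 junction genes, 4 were lower in both tongues, among them *CHRNA1* at 11.7 and 19.2 CPM.

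Of the metabolic genes, *MB* was higher in both tongues than in muscle. It was at 3794 CPM in Puku's tongue and 1979 in Sheila's, 32.1-fold and 16.8-fold above muscle. *PDK4*, the kinase that turns cells from glucose to fat oxidation, was at 1181 CPM in Puku's tongue and at 264 in Sheila's, which was close to the 203 of muscle. *LDHA* was lower in both tongues, at 19.2 and 10.5 CPM against 408. In all, 1 of 24 metabolic genes was higher in both tongues, where 7.20% of all tested genes were, and 3 were lower in both.

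Many matrix and red cell genes and some growth genes were lower in the tongues than in muscle. In Puku's tongue the largest ratios toward muscle, beside those above, were of *GPR50*, *SCN3B* and *PTN*. *GPR50*, an orphan receptor, was at 1457 CPM in muscle and 0.240 and 1.85 CPM in the tongues. *SCN3B*, a sodium channel subunit, was at 1096 against 0.479 and 0.265, and *PTN*, a secreted growth factor, at 259 against 0.0799 and 1.23. In Sheila's tongue *PTN* was not among the 8 largest, which also held *MYL3*, 2032-fold under muscle, LOC118837956, 1001-fold, and *TNNI1*, 749-fold. *AGTR2*, an angiotensin receptor, was at 214 CPM in muscle and 0.160 and 3.18 in the tongues. *IGF2* was at 87.5 and 119.9 CPM, and LOC118853838 was at 1095 and 1243 CPM, under the 7243 CPM of muscle but above the 309 CPM of heart. The growth list summed to 1595 and 1959.8 CPM in the tongues, 14913 in muscle and 1596 in heart. Of 16 matrix genes, 10 were lower in both tongues than in muscle and none was higher, with *COL1A1* at 55.7 and 334 CPM and median log2 ratios of -3.29 and -3.41. Proliferation genes had median log2 ratios of -0.94 in Puku's tongue and 0.21 in Sheila's, with 1 of 24 lower in Puku's and no call in Sheila's. The red cell list summed to 3.51 and 2.82 CPM, with 6 of 11 members lower in both tongues than in muscle. Of the 13 growth and fetal genes, 4 were lower in both tongues, and *LIN28A* had no reads in any of the 4 libraries. Adipocyte markers were present, with a sum of 115 CPM in Puku's tongue and 48.8 in Sheila's over 5 genes, led by the lipid droplet protein *CIDEA* at 70.9 and 42.6 CPM, while the brown fat marker *UCP1* had no reads in Puku's tongue and 1 in Sheila's. Cartilage and bone markers summed to 11.2 and 3.88 CPM, tendon markers to 0.319 and 3.35, and epicardial markers to 5.51 and 10.8. Endothelial genes summed to 267 and 158 CPM, smooth muscle genes to 442 and 219.6, Schwann cell genes to 91.4 and 154, and leukocyte genes to 114 and 67.7.

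**Figure D4:**
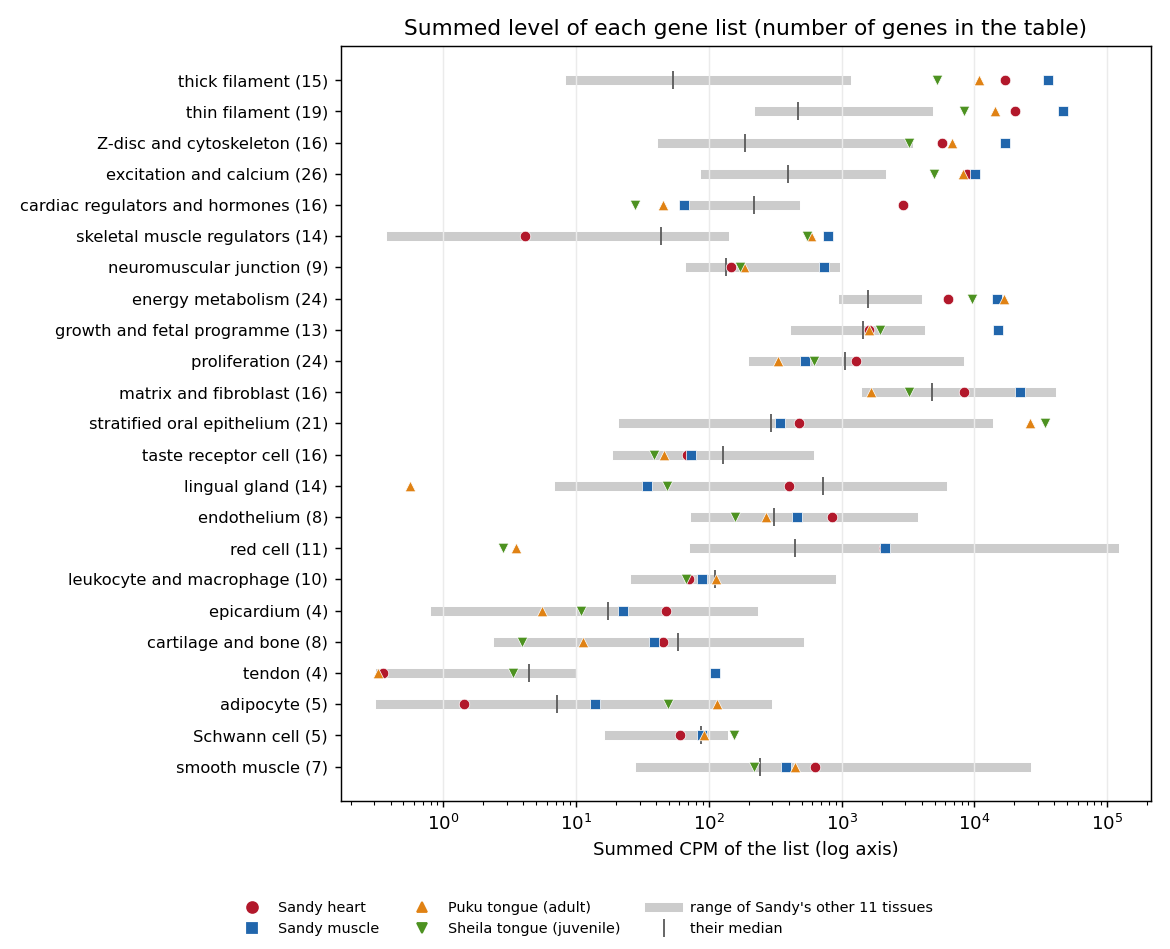
Summed CPM (log axis) of each gene list, with the number of its genes in the table, in the 4 libraries (coloured symbols) beside the range and median of Sandy's other 11 tissues (grey bars, black ticks). The oral epithelium list reaches 26091 and 33883 CPM in the tongues and 344 CPM in muscle, and the red cell list is at 2132 CPM in muscle and at 3.51 and 2.82 CPM in the tongues.

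The adult tongue was last compared with the juvenile tongue. Of 11149 genes tested, 253 (2.27%) were higher in Puku and 164 (1.47%) were higher in Sheila. The direction of the balance depended on scaling, since 211 and 224 genes passed when the 75th percentile was made equal, which moved the median log2 ratio over all genes from 0.18 to -0.02. Sheila was a juvenile and Puku an adult, and age cannot be told apart from the individual. The livers of these animals were compared in the same way. Of the 253 genes, 11 were also higher in Puku's liver (2.38% of genes passed there) and 4 were lower, and of the 164 genes, 5 were also lower in Puku's liver (1.40% passed) and 12 were higher.

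Most muscle genes were above their juvenile level in the adult tongue, few of them by 4-fold. Lists of other cell types leaned both ways. Median log2 ratios over all members were 0.88 for leukocytes, 0.74 for adipocytes, 0.64 for endothelium and 0.46 for smooth muscle. They were -1.69 for tendon, -0.52 for Schwann cells, -0.40 for oral epithelium and -0.38 for matrix. The tendon value rests on 4 genes near the floor, which summed to 0.319 CPM in Puku's tongue and 3.35 CPM in Sheila's. None of them reached the 5 CPM asked of a tested gene. The part of these cells in the muscle values was not tested. Thick filament genes had a median log2 ratio of 1.39 over the 10 tested and 1.03 over all 15, against 0.18 over all tested genes, with 4 of 15 higher in Puku and none in Sheila, and 12 of the 15 stood above their juvenile level at any ratio. Over tested members, thin filament genes had a median of 0.64, Z-disc genes of 1.09, calcium genes of 0.80 and metabolic genes of 0.74. Of their members, 2 of 19, 1 of 16, none of 26 and 1 of 24 were higher in Puku, where 2.27% of all tested genes were. *MYL3* was at 25.2 CPM in Puku's tongue and had 2 reads in Sheila's, a ratio of 95.1-fold with the floor of 3 reads and 143-fold without it, with a log2 counting interval of 5.29 to 10.21. *MYH6*, a myosin heavy chain of heart and specialised head muscles, was at 247 CPM in Puku's tongue, above the 168 CPM of Sandy's heart, and at 11.8 CPM in Sheila's. *TNNT1* and *TNNI1*, the slow troponins, were 25.6-fold and 17.4-fold higher in Puku. *FLNC*, a filamin of the Z-disc, was at 486 and 59.5 CPM, and *PDK4* was 4.47-fold higher in Puku. Among genes of fast fibres, *MYL1* was at 1538 and 1402 CPM, *TNNC2* at 1434 and 1181, *ACTN3* at 166 and 87.8 and *ATP2A1* at 4631 and 2666. At any ratio 6 of the 26 calcium genes were lower in Puku, and *GJA1*, at 61.5 against 253 CPM, was the only call among them. Junction and skeletal regulator genes gave no calls in Sheila's direction, and *SIX4* was the only call in Puku's, at 7.83 against 1.41 CPM.

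Several genes in the keratin and cornified envelope regions were abundant in the juvenile tongue and absent or rare in the adult tongue. LOC118850473, at chr5:272167888-272175079 between *KRT3* and *KRT77*, was at 9713 CPM in Sheila's tongue (110125 reads) and had no reads in Puku's, at least 40535-fold lower. LOC118846437, at chr4:183082658-183087373 between *EIF1* and *KRT9*, was at 8623 CPM and LOC118847410, at chr4:184309403-184316317 between *KRT25* and *KRT222*, at 4344 CPM, both again without reads in Puku's tongue. LOC118846449 and the transglutaminase *TGM7* were at 424 and 164 CPM in Sheila's tongue and without reads in Puku's, as was LOC118851626, between *KRT77* and *KRT7*, at 121 CPM. LOC118846648, which lies outside these regions between *MROH9* and *PRRC2C*, was at 97.6 CPM in Sheila and 0.479 in Puku. Repetin, *RPTN*, a matrix protein of the cornified layer, was at 0.319 CPM in Puku and 337 in Sheila. Trichohyalin, *TCHH*, which binds keratin in the inner root sheath of hair and in filiform papillae, had 1 read in Puku and 35.6 CPM in Sheila, and its neighbour *TCHHL1* was at 23.4 and 1112 CPM. *TCHH* and *TCHHL1* lie beside *RPTN* on chromosome 7 and were chosen for that position after their values had been seen. In Sandy's skin *TCHH* was at 317 CPM, LOC118846437 at 112 CPM, *RPTN* at 4.23 CPM and LOC118850473 without reads. Further genes of the same clusters were read in both animals but more in Sheila, LOC118850296 at 579 and 8419 CPM and LOC118846364 at 373 and 4397 CPM.

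The oral epithelium list had a median log2 ratio of -0.40 between the tongues, with 1 of 21 genes, the basal desmosomal cadherin *DSG3*, higher in Puku at 252 against 60.4 CPM, and none called in Sheila. Over all tested genes, 2.27% were higher in Puku and 1.47% in Sheila. *KRT4* was nearly equal, at 12288 CPM in Puku and 13479.8 in Sheila. *KRT7* was at 0.160 CPM in Puku and 41.6 in Sheila, and was the only lingual gland gene called.

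**Figure D5:**
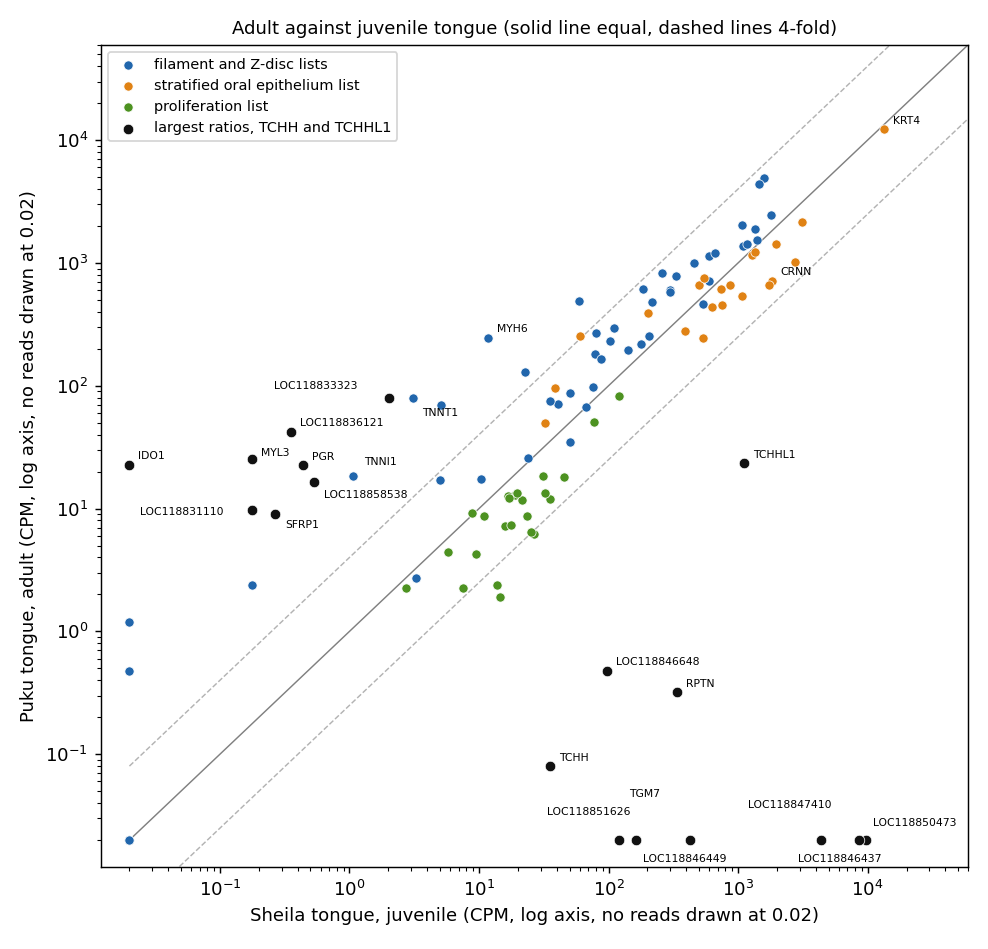
Level in Puku's adult tongue against Sheila's juvenile tongue, both in CPM on log axes with genes without reads drawn at 0.02, for the filament and Z-disc, epithelium and proliferation lists for the 8 largest ratios in each direction, and for *TCHH* and *TCHHL1*. LOC118850473, LOC118846437 and LOC118847410 lie at 9713, 8623 and 4344 CPM in Sheila with no reads in Puku, and *MYH6* and *MYL3* lie above the 4-fold line.

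Proliferation and matrix genes mostly stood below their juvenile level in the adult tongue, few of them by 4-fold. Of 24 proliferation genes, 23 were lower in Puku, 3 of them by 4-fold or more, with a median log2 ratio of -1.13. The exception was *TTK*, a mitotic kinase, at 9.19 and 8.91 CPM. *MCM2*, of the replication helicase, was at 1.92 and 14.6 CPM, and *TYMS*, which makes thymidylate, at 2.40 and 13.8. Of 16 matrix genes 14 were lower in Puku, with *COL1A1*, 6.01-fold lower, as the only call and a median log2 ratio of -0.38. Of all tested genes, 1.47% were called lower in Puku. The fetal RNA-binding proteins *IGF2BP3* and *IGF2BP2* were at 3.04 and 2.64 CPM in Puku and at 305 and 19.7 in Sheila, while *IGF2* itself was similar in both. Sheila's liver held *IGF2BP3* at 23.3 CPM and Puku's at 6.44.

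The largest ratios toward the adult tongue were of mixed kinds. LOC118836121, at 42.3 against 0.353 CPM, was far more abundant in Sandy's liver, at 16455 CPM, and in the livers of Puku and Sheila, at 4184 and 10673 CPM. *IDO1*, a tryptophan-degrading enzyme of the immune response, was at 22.7 CPM in Puku's tongue and had no reads in Sheila's, at least 85.7-fold lower. *PGR*, the progesterone receptor, was at 22.5 against 0.441 CPM, and *SFRP1*, a secreted inhibitor of Wnt signalling, was at 9.11 CPM against 3 reads. LOC118833323, at 79.9 against 2.03 CPM, was highest in heart, at 4430.3 CPM, with 826 CPM in muscle. LOC118831110 was at 9.82 CPM against 2 reads, and LOC118858538 at 16.4 against 0.529 CPM. Among adipocyte genes, *PLIN1*, which coats lipid droplets, was at 19.6 against 1.68 CPM and *ADIPOQ*, adiponectin, at 24.1 against 4.41 CPM.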

How the data were processed

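RNA was sequenced from strand-specific poly(A) libraries. Per the submitters' processing notes, reads were trimmed with Trim Galore 0.6.7 and mapped with HISAT2 2.2.1 to the possum assembly mTriVul1.pri. The authors counted uniquely mapped reads over genes in SeqMonk and deposited log2 values. These are scaled to the library total and, although named RPKM, are not divided by gene length. The strand setting of the counting was not given in the sources used here. A gene without reads was deposited as 0.9 read, from which the library total and the whole reads per gene were recovered. All values under 1000 reads (100.0%) came out whole within 0.02.

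Of 23816 rows, 23389 had a symbol that occurs once. The 17 libraries named in the report were used, and 99 other library columns were not. A gene was tested in a comparison when its higher library held at least 5 CPM and called at a 4-fold ratio, with a floor of 3 reads. With 1 library per tissue no statistical test was run. Binomial intervals (95%, exact) cover counting error only. The genes named were taken from the 8 largest ratios of each comparison and direction, the 10 most abundant genes of each of the 4 libraries, and members of marker and function lists. Listed genes without a row under their symbol were left out of the list counts, sums and medians. Libraries, lists and tests were chosen with earlier results of these data known. The calling was tested on simulated data for heart against muscle, in which all 200 genes changed 8-fold were called and 0 of 11157 unchanged genes. The changed genes were drawn from those with a mean of at least 20 CPM in heart and muscle. Changed genes near 5 CPM or near 4-fold were therefore not checked. The simulation held counting noise only, so it checks the calculation and not the rate of false calls between animals or tissues. List medians are over the members tested unless stated otherwise. Alternatives were other scalings, minimum levels, ratios and floors. Intervals came from scipy 1.17.1, tables from pandas 2.3.3 and figures from matplotlib 3.10.9, under Python 3.11.15.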

Additional observations from a re-analysis of the deposited data

Results flagged for a closer look

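Reads of tongue keratin genes in Puku's liver stood apart, being transcripts typical of tongue in a liver library. *KRT4* was at 34.7 CPM and *KRT3* at 24.6 CPM in the adult liver, and both had no reads in the juvenile liver. Relative to *KRT4*, LOC118850473, LOC118846437 and LOC118847410 were at 0.667, 0.663 and 0.357 in the adult liver and at 0.721, 0.640 and 0.322 in the juvenile tongue. The source of these reads was not tested.

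The adult and the juvenile differed in opposite directions in tongue and liver for these 3 unnamed genes. The log2 ratio of adult over juvenile was -15.14 in tongue and 6.50 in liver for LOC118846437, -14.15 and 5.61 for LOC118847410, and -15.31 and 6.52 for LOC118850473. Puku's tongue and Sheila's liver were taken at the floor of 3 reads, so each value is a lower limit on the size of the difference. With 1 library on each side, the difference between the tissues was not tested.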

How the results depend on the processing

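No paired analysis was possible because each tissue was a single library, and no library could be left out. Levels per kb of exon were not run, since exon lengths were not used here. None of the 64 ratios of named genes changed sign under the alternatives run on them. The balance of calls did, since 673 genes were higher and 597 lower in heart than in muscle without mitochondrial genes in the total. With at least 1 CPM asked of the higher library, 925 genes were lower in heart than in muscle, 483 were higher and 361 lower in the adult than in the juvenile tongue, 1812 were lower in the adult tongue than in muscle, and 131 were higher in the tongues than in Sandy's tissues. With at least 20 CPM, 376 were higher and 380 lower in heart than in muscle, 124 higher and 84 lower in the adult than in the juvenile tongue, 762 higher and 729 lower in the adult tongue than in muscle, 760 and 1051 in the juvenile tongue, 547 and 643 in both, and 46 were higher in the tongues than in Sandy's tissues. At a 2-fold ratio these counts were 1730 and 1133 for heart against muscle, 1438 and 771 for adult against juvenile tongue, 2165 and 2906 for adult tongue against muscle, 2033 and 3838 for juvenile tongue against muscle, 1515 and 2500 for both tongues, and, against Sandy's tissues, 161 for heart, 289 for muscle, 154 for heart and muscle, and 134 for the tongues. At an 8-fold ratio they were 309 and 381 for heart against muscle, 64 and 72 for adult against juvenile tongue, 617 lower in the adult tongue, 750 in the juvenile tongue and 471 in both than in muscle, and 41 for heart, 47 for the tongues and 19 for all 4 libraries against Sandy's tissues.

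For both tongues against muscle, 1098 genes were higher and 1006 lower without the 50 most abundant genes in the total, and 1070 and 888 without mitochondrial genes. For Sheila's tongue alone, 1417 were higher and 1458 lower with the 75th percentile made equal. Without the 50 most abundant genes, 273 genes were lower in the adult than in the juvenile tongue and 116 were higher in the tongues than in Sandy's tissues. The other scalings moved 1 or 2 of 64 ratios of named genes by more than their counting interval, and setting values below 1 CPM to 1 CPM moved 49 of them. The scaling without mitochondrial genes, chosen after seeing the data, put the median log2 ratio at 0.34 for heart against muscle, 0.18 for adult against juvenile tongue, and 0.04 and -0.11 for adult and juvenile tongue against muscle. Among lists with more than 2 members tested, 4 medians over tested members changed sign with scaling, those of the junction list between the tongues (-0.07 to 0.20), leukocytes in juvenile tongue against muscle (-0.16 to 0.11), and Schwann cells (-0.06 to 0.20) and smooth muscle (-0.12 to 0.14) in adult tongue against muscle. Over all members, 3 did, those of leukocytes in heart against muscle (-0.19 to 0.16) and in juvenile tongue against muscle (-0.06 to 0.21), and of Schwann cells in adult tongue against muscle. Of the 164 genes lower in the adult tongue, 16 had no reads there, of which 6 had more than 3 reads in the adult liver and 2 in the juvenile liver, a split also chosen after seeing the data.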

Other observations

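A set of 8 genes on unplaced scaffolds had at least 5 CPM in all 13 of Sandy's libraries and no reads in the 4 libraries of Puku and Sheila, and no gene showed the opposite pattern. They were chosen after their values had been seen. LOC118833339 was the most abundant, at 60.8 to 501 CPM in Sandy's tissues, with 176 CPM in heart and 138 in muscle, and it was among the largest ratios of muscle over adult tongue. LOC118833356 was at 57.9 CPM in heart and 38.2 in muscle, and LOC118833371 at 75.3 and 54.8. Sandy was male and Puku and Sheila were female, and the study treats most of the scaffolds concerned as unassembled parts of the Y chromosome.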
